A study of Mus musculus with 20 samples.

Results

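The transcriptome of 5 mouse kidney tumours raised from the cell line MSRT1 was described with no treated group beside it. The 5 are the vehicle and IgG arm of a study of 20 tumours in 4 groups of 5, which crossed vehicle or GYY with IgG or PD1, and every one of the 5 libraries with that label was used. These mice were therefore given a vehicle and a control antibody, and were not left wholly untreated. The labels give the species as Mus musculus, the tissue as kidney tumor and the cell type as renal medullary carcinoma, and they name no strain, sex or age. All 5 tumours come from 1 cell line. The spread between them may mix differences between mice, tissue pieces, cancer cells and libraries, which cannot be told apart here. The libraries were made from total RNA with a Nextera XT kit after lysis in QIAzol.

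Renal medullary carcinoma in people is a rare and aggressive cancer of the kidney medulla, defined by loss of the protein SMARCB1. SMARCB1 is a core subunit of the SWI/SNF complex, which slides and evicts nucleosomes at enhancers and promoters. A tumour taken from a mouse also holds macrophages, fibroblasts, vessel cells and, where the cut passes through kidney, tubule cells, and bulk RNA is the sum of all of them.

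Levels are given in rescaled TPM, that is, the deposited TPM (transcript share per gene, corrected for gene length) rescaled so that nuclear protein-coding genes alone make up the fixed TPM total in each tumour. Groups of 5 values run from tumour 1 to tumour 5, and ± is the SD over the 5 tumours (n = 5). The scale was needed because nuclear protein-coding genes held 28.3% to 43.1% of the deposited TPM. The model Gm23935 alone held 30.6% to 43.7% and mitochondrial genes held 4.96% to 6.83%. The satellite-like models Gm10800, Gm10801 and Gm21738, left out here, held 3.37% to 12.7%, most in tumours 2 and 4. Read numbers cannot be had from TPM, which leaves the depth of the libraries unknown and the counting error unstated. An olfactory, vomeronasal or trace amine receptor gene is not thought to be used in a tumour, and the 95th percentile of 1046 such genes, 0.259, 0.479, 0.186, 0.575 and 0.166 rescaled TPM, served as background in each tumour. Of 19766 nuclear protein-coding genes, 13128 (66.4%) were over that background in all 5 tumours, and 13077 ± 651 genes reached 1 rescaled TPM. Tumour 4 had the most of the latter, 14216, against 12617 to 12991 in the others. It also had the fewest genes at 0, 898 against 2089 to 2451, and the highest background. A low value that is highest in tumour 4 is read with this limit.

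The most abundant messages were those of iron storage, cytoskeleton, translation, antigen presentation and glycolysis. Ftl1, the light chain of the iron store ferritin (chr7:45457944-45459884, mm10), stood first with 9259, 5215, 6724, 7666 and 9411 rescaled TPM. Fth1, the ferritin heavy chain, had 5791, 5928, 6664, 7273 and 7544 rescaled TPM. Both chains were thus among the first 3 genes, tumour 2 being lowest for Ftl1 and tumour 1 for Fth1. Actb, cytoplasmic actin, had 8759.8, 5284, 7384, 8081 and 7497 rescaled TPM. B2m, the shared light chain of MHC class I, was the steadiest of the leading genes with 6259, 6305, 6098, 6442 and 6123 rescaled TPM and an SD of 0.03 on the log2 scale. Eef1a1, the elongation factor that brings aminoacyl-tRNA to the ribosome, had 5532 ± 333 rescaled TPM, Tpt1 5711 ± 605 and the glycolytic enzyme Gapdh 4663 ± 650.5. Many of these genes have processed pseudogenes of near-identical sequence, which makes their exact level uncertain. None of the 78 cytosolic ribosomal protein genes had a 4-fold range between tumours, near the 2.1% of all genes averaging at least 10. Led by Rpl41 at 5869 ± 943 rescaled TPM, the 78 together held 8.69% ± 0.789 of the coding total. The 20 most abundant genes together held 8.61% ± 0.263 of it, so the profile was not carried by a handful of messages.

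Secreted and stress-related products filled much of the rest of the top rank. Spp1, or osteopontin, a secreted phosphoprotein of bone, macrophages and injured kidney tubules, had 3004, 3718, 3692, 8053 and 4755 rescaled TPM (chr5:104435118-104441050). Tumour 4 stood above the other 4 for it. Selenop, the plasma selenium carrier, had 2707, 5324, 4612, 2134 and 2492 rescaled TPM and was high in tumours 2 and 3. Gpx3, a secreted glutathione peroxidase made in kidney, had 2864, 1105, 5232, 3522 and 2074 rescaled TPM, lowest in tumour 2. Psap, the precursor of the lysosomal saposins, had 3688 ± 503 rescaled TPM and the secreted protease inhibitor Slpi had 1988 ± 746. Lcn2, a siderophore-binding protein of injured epithelium and of neutrophils, had 1089.7, 1045, 1014, 2796 and 1135 rescaled TPM, again highest in tumour 4. Plin2, which coats lipid droplets, had 1335 ± 148 rescaled TPM with all 5 tumours at 1188 to 1552. Lcn2 and Plin2 were chosen after their values were seen. The model Gm10718, a provisional name that the rule for leaving out satellite-like models does not cover, ranked 17 with 1051, 4097, 1383, 4755 and 1537 rescaled TPM, and was high in the same tumours, 2 and 4, as the models left out.

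**Figure D1:**
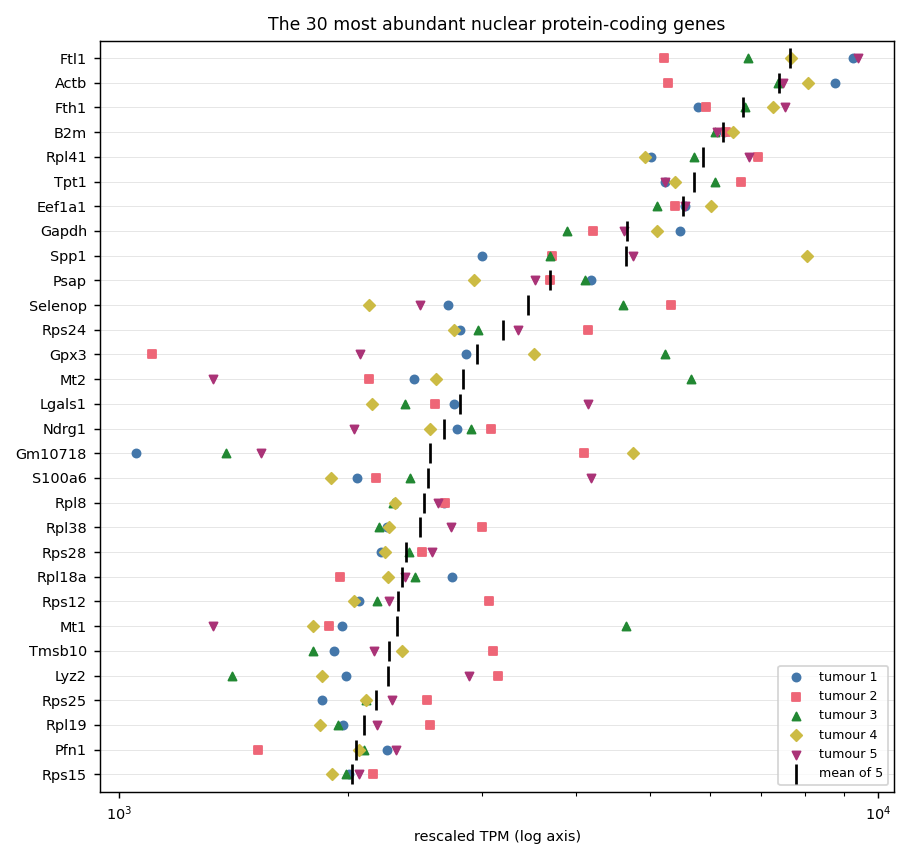
Rescaled TPM on a log axis of the 30 most abundant nuclear protein-coding genes, 1 symbol per tumour and a bar at the mean of 5. The values of B2m lie almost on top of each other, while Spp1 is high in tumour 4, Mt1 and Mt2 in tumour 3 and Gpx3 is low in tumour 2.

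The metallothioneins Mt1 and Mt2, small cysteine-rich proteins that bind zinc and copper, moved together over the tumours. Mt2 had 2443, 2134, 5670.2, 2611 and 1328 rescaled TPM. Mt1 had 1967, 1889, 4644, 1797 and 1327 rescaled TPM. Tumour 3 was highest and tumour 5 lowest for both. In mammals these genes answer zinc through the factor MTF1, which binds metal response elements with the core TGCGCNC or TGCACNC. The promoter windows of both genes are shown because the pair lie side by side and share this pattern: each runs from 250 bases before to 50 bases after the start of the gene as annotated by RefSeq on GRCm38.p6, the mm10 assembly, 5′ to 3′ on the plus strand. Capitals mark the core on either strand.
Mt1, chr8:94178839-94179138: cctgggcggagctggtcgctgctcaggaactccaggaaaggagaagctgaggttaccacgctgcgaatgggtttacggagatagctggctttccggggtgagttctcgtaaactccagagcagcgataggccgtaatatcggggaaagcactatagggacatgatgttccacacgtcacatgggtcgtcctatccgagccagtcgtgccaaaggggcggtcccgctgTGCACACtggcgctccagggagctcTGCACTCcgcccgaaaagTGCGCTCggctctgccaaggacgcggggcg
Mt2, chr8:94172368-94172667: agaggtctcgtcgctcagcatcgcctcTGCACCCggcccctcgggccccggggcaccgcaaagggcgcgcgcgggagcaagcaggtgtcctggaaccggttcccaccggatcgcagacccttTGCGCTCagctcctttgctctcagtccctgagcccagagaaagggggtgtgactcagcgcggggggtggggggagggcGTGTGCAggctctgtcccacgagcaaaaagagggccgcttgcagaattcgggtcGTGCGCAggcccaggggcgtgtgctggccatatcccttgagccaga
Searched on both strands, with no base shared between matches of the 2 forms, the core occurs 3 times in the Mt1 window and 4 times in the Mt2 window. Among all 32851 RefSeq promoter windows of the same length, 25.7% hold it at least once, so a single match is common. A match describes the letters of the window and is not evidence of binding.

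Most SWI/SNF subunits were transcribed in all 5 tumours, with a small spread. Smarcb1 itself had 108, 69.04, 80.5, 86.7 and 88.2 rescaled TPM (chr10:75896769-75921617), more than 87.3% of nuclear protein-coding genes. Its message was therefore present in every tumour, at a mean of 86.5 ± 14.2 rescaled TPM. A gene-level value counts reads anywhere in the gene: it cannot show whether an exon is missing or a protein is made, or how much of it comes from host cells. Smarca4, the main ATPase of the complex, had 89.4, 56.3, 74.4, 65.3 and 67.7 rescaled TPM. Phf10, a subunit of the polybromo form of the complex, was the highest of the list with 524 ± 65.3 rescaled TPM, ahead of Actl6a with 126 ± 8.33 and Pbrm1 with 116 ± 10.2. Of the 27 subunit genes listed, 26 were over background in all 5 tumours (96.3%, against 66.4% of all coding genes). Of the 20 that averaged at least 10, 0 had a 4-fold range, where 2.1% of all such genes did, and their median SD was 0.14 on the log2 scale, against 0.19 for all such genes. The list averaged 5.10 ± 0.09 on the log2 scale. Polycomb repressive complex 2, which deposits repressive methylation on histone H3 and opposes SWI/SNF, was transcribed too: Ezh2, its methyltransferase, had 49.4, 55.3, 39.2, 49.98 and 56.3 rescaled TPM, and the other core subunits Eed and Suz12 had 122 ± 22.3 and 102 ± 4.29.

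Several genes of the renal tubule lineage were well over background in all 5 tumours. Pax8, a factor of the kidney tubule from its earliest stage and a stain used for renal tumours, had 139, 152, 170.1, 126 and 122 rescaled TPM. Cdh16, the kidney-specific cadherin, had 252, 260.00, 249.9, 214 and 197 rescaled TPM. Tfcp2l1, a factor of collecting duct and distal tubule, had 96.2, 77.6, 90.96, 82.1 and 56.8 rescaled TPM. For these 3 genes the highest tumour was less than 2-fold above the lowest. Gata3, a factor of the collecting duct, averaged 25.5 ± 4.17 rescaled TPM, Emx2, a factor of the ureteric bud, 29.03 ± 3.79 and Pax2 17.8 ± 3.92. Krt20, a keratin of urothelium and gut, had 160.1, 130.1, 252, 128 and 92.2 rescaled TPM. Other genes of the renal lineage list were low or uneven. Hnf4a, the factor of the mature proximal tubule, had 0.144, 0.0871, 9.18, 24.3 and 0.0304 rescaled TPM, over background only in tumours 3 and 4. Krt7, a keratin of ducts, had 0.945, 0.802, 3.38, 15.2 and 1.23 rescaled TPM and Foxi1, a factor of the intercalated cells of the collecting duct, had 0.0914, 0, 1.303, 6.98 and 0.0583. Both were highest in tumour 4, next in tumour 3. Wt1, a factor of podocytes and nephron progenitors, had 9.23, 17.96, 7.77, 20.3 and 6.31 rescaled TPM.

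Of the 23 renal lineage and diagnostic genes listed, 16 were over background in all 5 tumours (69.6%), a share close to the 66.4% of all coding genes. Pou5f1, which encodes OCT4, a pluripotency factor stained for in the human cancer, had 0, 0.307, 0, 0.261 and 0 rescaled TPM and was over background in none. Car9, a membrane carbonic anhydrase induced by hypoxia, had only 1.61, 1.18, 0.725, 1.55 and 1.24 rescaled TPM. Dppa2 and Dppa4, neighbours on chromosome 16 that are normally used in early embryos and pluripotent cells, were named after their values were seen. Dppa2 (chr16:48303908-48319723) had 38.2, 1.604, 34.4, 31.1 and 32.6 rescaled TPM. Dppa4 (chr16:48283733-48294237) had 25.4, 1.497, 43.5, 31.7 and 32.3 rescaled TPM. Both were low in tumour 2 and within 2-fold of each other in the other 4 tumours.

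**Figure D2:**
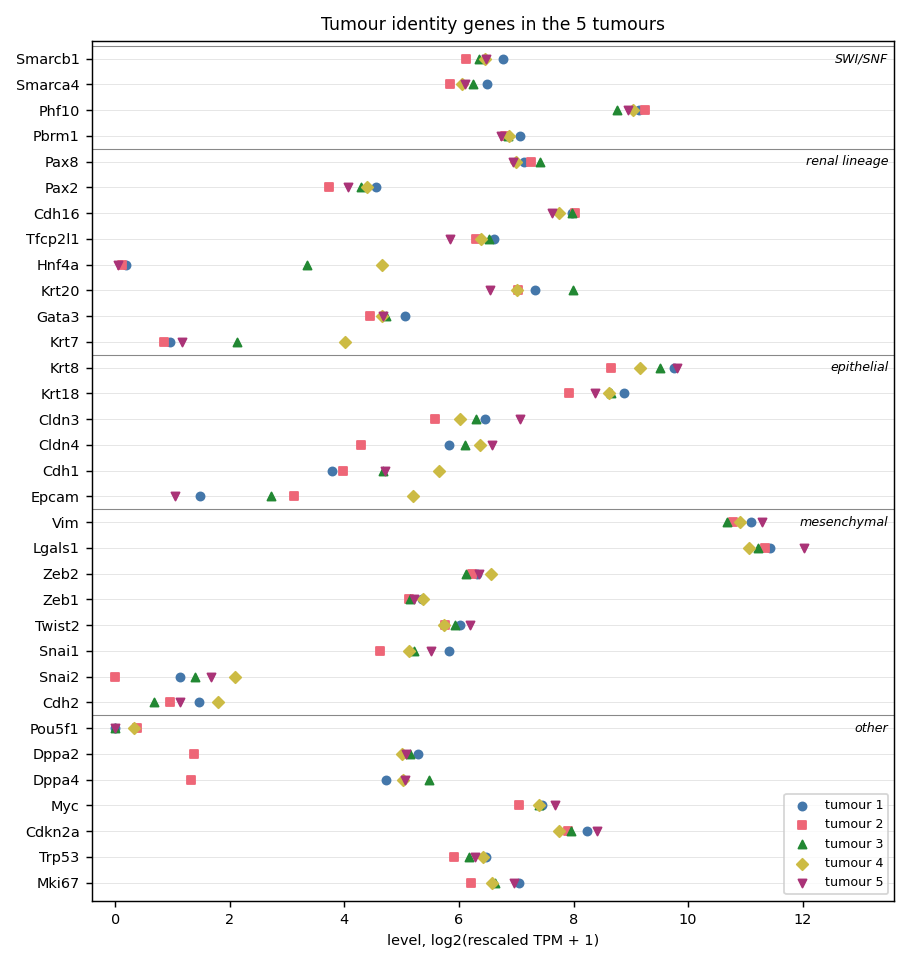
Level of tumour identity genes as log2 of rescaled TPM plus 1, 1 symbol per tumour, grouped by role. Pax8, Cdh16, Vim, Zeb2 and Smarcb1 form tight rows, while Hnf4a, Krt7 and Epcam spread, with tumour 4 at the top, and Dppa2 and Dppa4 are low in tumour 2.

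Mesenchymal genes were far more abundant than epithelial ones, in every tumour. The 20 mesenchymal genes listed averaged 6.29, 5.78, 5.89, 6.35 and 6.37 on the log2 scale, against 2.74, 2.62, 3.26, 4.32 and 2.86 for the 20 epithelial genes. The difference between the lists was 3.56, 3.16, 2.62, 2.02 and 3.51, and its mean was 2.98 ± 0.65 (SD, n = 5). A paired exact test over 5 tumours cannot give a two-sided p under 0.0625, and none was made. Vim, the intermediate filament of mesenchymal cells, had 2201, 1765, 1636, 1911 and 2502 rescaled TPM. Lgals1, a secreted galectin, averaged 2808 ± 785 rescaled TPM and S100a6, a calcium-binding protein of spread cells, 2548 ± 935, both highest in tumour 5. Among the transcription factors that drive the mesenchymal state, Zeb2 averaged 79.1 ± 9.48 rescaled TPM, Twist2 60.2 ± 8.07, Snai1 38.8 ± 11.97 and Zeb1 37.01 ± 3.08. Their relatives Snai2 and Twist1 reached only 0 to 3.25 and 0.9299 to 2.86 rescaled TPM, and Cdh2, the neural cadherin, 0.607 to 2.49. Macrophages and fibroblasts also use Vim, Lgals1 and Zeb2, so the cell that holds each message cannot be told from bulk RNA.

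Epithelial genes were uneven. Krt8, a keratin of simple epithelium, had 858, 400.1, 732, 572 and 895 rescaled TPM. Krt18, its partner in the same filament, had 468, 242, 403, 394 and 331 rescaled TPM, and both were high in all 5 tumours. Cldn3, a tight junction claudin, had 86.3, 46.8, 77.7, 63.7 and 132 rescaled TPM. Cldn4, another claudin, had 55.8, 18.7, 67.99, 81.98 and 94.8, and tumour 2 was lowest for all 4 of these genes. Cdh1, the epithelial cadherin, had 12.8, 14.8, 24.4, 49.3 and 25.1 rescaled TPM, highest in tumour 4. Epcam, an epithelial adhesion protein, had 1.78, 7.67, 5.57, 35.8 and 1.05 rescaled TPM. Spint1, a membrane protease inhibitor, had 0.0951, 0.4197, 3.74, 22.9 and 0.592. For Epcam and Spint1 tumour 4 stood well above the rest, and it was also the tumour with the most kidney tubule message, described below. Without tumours 3 and 4, a setting added after seeing the data, the epithelial list averaged 2.74 instead of 3.16 on the log2 scale.

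Homeobox genes of the Hox clusters mark body position in the embryo, and the most abundant ones came from paralogous groups 6 to 10. Hoxb9 averaged 70.6 ± 6.89 rescaled TPM, Hoxc10 61.3 ± 10.3, Hoxa10 54.2 ± 1.56, Hoxc6 51.8 ± 17.6, Hoxd10 51.2 ± 10.9 and Hoxd8 49.99 ± 4.78. Hoxa10 had 55.5, 51.997, 55.8, 54.1 and 53.5 rescaled TPM and an SD of 0.04 on the log2 scale. Group 11 was split: Hoxa11 averaged 21.5 ± 3.33 and Hoxd11 17.9 ± 7.62 rescaled TPM, whereas Hoxc11 reached at most 0.293. Group 13, the most posterior, lay at or near background, with Hoxa13 at 0.209 to 0.527, Hoxb13 at 0 to 0.295 and Hoxd13 at 0 to 0.7004 rescaled TPM. Hoxb1 and Hoxd12 were over background in no tumour. Of the 39 Hox genes 31 were over background in all 5 tumours (79.5%, against 66.4% of all coding genes). Of the 19 that averaged at least 10, 0 had a 4-fold range, near the 2.1% of all such genes.

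Genes of cycling cells were transcribed in all 5 tumours. Myc, the growth-driving transcription factor, had 173, 132, 168, 168 and 205 rescaled TPM. Mki67, a nuclear protein made only in cycling cells, had 131, 73.1, 98.6, 94.2 and 124 rescaled TPM. Top2a, the topoisomerase of dividing cells, had 150.3, 96.2, 131, 139 and 175 rescaled TPM. Tumour 2 was lowest for all 3, and the mitosis list as a whole was lowest there, with 6.25, 5.55, 6.004, 6.07 and 6.41 on the log2 scale. Pcna, the clamp of DNA replication, did not share this order, with 488, 661, 576, 494 and 659 rescaled TPM. Cell cycle brakes were also transcribed: Cdkn2a, a locus that encodes the inhibitor p16 and the p53 activator ARF, had 299, 237, 247, 214 and 339 rescaled TPM. Trp53, encoding p53, had 87.3, 59.1, 71.4, 84.1 and 76.4 rescaled TPM and Cdkn1a, its classical target p21, had 129, 211, 214, 181 and 112. Cdk4, the kinase that p16 inhibits, was steady at 437 ± 23.4 rescaled TPM, and Ccnd1, its cyclin, ran from 61.03 to 205, lowest in tumour 2. Among receptors and ligands, Vegfa, which recruits vessels, averaged 271 ± 58.2 rescaled TPM, Gas6, the ligand of the kinase Axl, 224 ± 16.9, Axl itself 93.04 ± 25.5 and Fgfr1, a fibroblast growth factor receptor, 204 ± 28.8. Gdf15, a stress-induced hormone of the TGF-beta family, averaged 306 ± 91.9 rescaled TPM. Of 17 coding genes on the fetal and imprinted growth list, 10 were over background in all 5 tumours (58.8%, against 66.4% of all coding genes). Igf2bp2, which binds growth factor messages, averaged 110.1 ± 21.8 rescaled TPM and the chromatin protein Hmga1 81.001 ± 14.1, while the fetal growth factor Igf2 reached only 0.159 to 0.715 and Hmga2, a relative of Hmga1, 0.308 to 0.727.

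Glycolytic and hypoxia-response genes stood high. Aldoa, Pkm, Eno1 and Ldha, enzymes of glycolysis and lactate formation, averaged 1391 ± 196, 1369.8 ± 189, 1062 ± 151 and 1055 ± 144 rescaled TPM. Ndrg1, a stress gene induced by hypoxia, had 2782, 3092, 2907, 2566 and 2038 rescaled TPM and ranked 16 of all coding genes. Ero1l, an endoplasmic reticulum oxidase induced by hypoxia, averaged 939 ± 190.4. The hypoxia list was highest in tumour 2, with 6.81, 7.22, 6.73, 7.01 and 6.75 on the log2 scale. Bnip3, a mitophagy receptor, had 499, 1302, 469, 613 and 279 rescaled TPM. Ankrd37, a further hypoxia target, had 16.6, 85.6, 17.5, 23.1 and 23.2 rescaled TPM. Eno2, a glycolytic enolase, had 73.6, 214, 63.7, 78.7 and 69.8. Tumour 2 exceeded the next tumour by more than 2-fold for each of these 3 genes. The 9 genes listed for making and clearing hydrogen sulfide had a median of 39.1 rescaled TPM, against 9.31 for all coding genes. Of those that make it, Cth, which makes sulfide from cysteine, had 87.8, 128, 85.2, 88.7 and 71.7 rescaled TPM, Mpst 82.4, 61.7, 65.1, 59.4 and 51.99 and Cbs only 2.96, 2.62, 2.22, 4.23 and 1.37. Of the clearance enzymes, Ethe1, the persulfide dioxygenase, averaged 137 ± 32.3 and Sqor, the sulfide oxidase, 39.1 ± 9.21 rescaled TPM.

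Macrophage markers were abundant, and their list mean was similar in all tumours. The 16 macrophage markers averaged 7.13, 6.71, 6.99, 6.84 and 7.14 on the log2 scale. All 16 were over background in every tumour (100%, against 66.4% of all coding genes). Single markers were less even, with a median SD of 0.32 on the log2 scale, against 0.19 for all genes averaging at least 10. Of the 16, 1 had a 4-fold range (6.25%, against 2.1% of all genes averaging at least 10). Lyz2, lysozyme of myeloid cells, had 1992, 3157, 1406, 1847 and 2885 rescaled TPM. Apoe, a lipid carrier of macrophages and liver, had 1453, 784, 1023, 955 and 915 rescaled TPM. C1qa, C1qb and C1qc, the complement chains made by tissue macrophages, averaged 436 ± 75.4, 450.2 ± 68.1 and 376 ± 80.4 rescaled TPM. Cd68, a lysosomal protein, averaged 625 ± 88.9 and the mannose receptor Mrc1 287 ± 43.4. Adgre1, the F4/80 antigen, had 45.4, 29.8, 29.3, 39.4 and 44.1 rescaled TPM and Ptprc, the CD45 antigen of all leukocytes, had 41.004, 39.9, 36.1, 71.1 and 47.97. In bulk tissue, fewer cells of a type and less RNA per cell cannot be told apart. Among macrophage genes with a 4-fold range, Vsig4, a complement receptor of resident macrophages, had 14.4, 8.12, 24.5, 5.15 and 58.9 rescaled TPM, highest in tumour 5. Mmp12, the macrophage elastase, which is not among the 16, had 290.4, 763, 106, 419 and 206, highest in tumour 2.

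Neutrophil genes varied more than any other leukocyte list. S100a8 and S100a9, the calprotectin subunits, had 48.02, 175, 200.3, 784 and 27.1 and 50.6, 233, 210.1, 829 and 37.5 rescaled TPM. Retnlg, a resistin-like protein of neutrophils, had 13.7, 26.9, 40.4, 136 and 3.02 rescaled TPM. Csf3r, the G-CSF receptor, had 10.8, 26.6, 10.02, 44.5 and 11.5 rescaled TPM. Tumour 4 was highest for all 4 genes, and tumours 1 and 5 were lowest for S100a8, S100a9 and Retnlg. All 6 neutrophil markers that averaged at least 10 had a 4-fold range, against 2.1% of the 9742 genes that averaged at least 10. Il1b, an inflammatory cytokine, had 14.8, 67.3, 13.3, 109.8 and 31.8 rescaled TPM, high in tumours 2 and 4, and Nos2, the inducible nitric oxide synthase, chosen after its values were seen, had 20.3, 52.7, 17.02, 80.3 and 29.04.

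Most lymphocyte messages examined were scarce. Cd3e, a chain of the T cell receptor complex, had 1.97, 1.87, 1.15, 2.52 and 1.19 rescaled TPM. Cd8a, the coreceptor of cytotoxic T cells, had 1.15, 0.1302, 0.643, 0.0781 and 0.136 rescaled TPM, over background only in tumours 1 and 3. Trac, the constant part of the T cell receptor alpha chain, which GENCODE does not type as protein coding, had 1.05, 0.5902, 1.59, 2.44 and 2.76 on the same scale. All 3 lay far below the macrophage genes. Lck, a kinase of T cells, was an exception with 18.2, 22.6, 10.9, 11.9 and 12.1 rescaled TPM and stood above Cd3e in every tumour. Gzmb, a cytotoxic granule protease, had 0.474, 0.868, 0.321, 0.734 and 0.403 rescaled TPM. Ifng, the main T cell and NK cell interferon, was listed at 0 in all 5 tumours. Ms4a1, the B cell antigen CD20, reached at most 0.377 rescaled TPM. Pax5, a factor that among blood cells only B cells use, had 22.1, 13.2, 19.1, 13.8 and 14.4 rescaled TPM. The T cell list averaged 1.20 ± 0.09 on the log2 scale, the NK and cytotoxic list 0.63 ± 0.21, the B and plasma cell list 1.26 ± 0.17 and the dendritic cell list 1.78 ± 0.34. These means cover only members found among the coding genes, 11 of 14 T cell genes and 7 of 10 B and plasma cell genes. Trac is thus not in them. Of the 11 T cell genes 7 were over background in all 5 tumours (63.6%), close to the 66.4% of all coding genes. The share was 22.2% for the NK and cytotoxic list and 28.6% for the B and plasma cell list. In the T cell list only Lck averaged at least 10, and in the B and plasma cell list only Pax5. The list means are therefore a poor measure of lymphocyte content.

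Antigen presentation and checkpoint ligands were transcribed although the lymphocyte checkpoint receptors given here were low. H2-D1 and H2-K1, heavy chains of MHC class I, averaged 1250.1 ± 87.8 and 767 ± 71.7 rescaled TPM, with a caution that class I genes are similar enough to share reads. Cd74, the invariant chain of MHC class II, had 325, 321, 276, 427 and 298 rescaled TPM. Cd274, encoding PD-L1, had 22.4, 19.7, 26.3, 24.8 and 19.9 rescaled TPM. Pdcd1, encoding its receptor PD-1, had 0.455, 0.208, 0.231, 0.7902 and 0.217 rescaled TPM. Pdcd1 was thus below 1 in every tumour, while Cd274 kept within a 1.5-fold range. Checkpoint genes of other axes were higher: Sirpa, the inhibitory receptor of macrophages, averaged 372 ± 30.8, its ligand Cd47, 291 ± 22.2, Lgals9, a galectin bound by TIM-3, 194 ± 10.1, and Pvr, the ligand of TIGIT, 134 ± 28.3 rescaled TPM. Ctla4 and Lag3, inhibitory receptors of T cells, reached at most 0.789 and 1.53, and Ido1, a tryptophan-degrading enzyme, was over background in no tumour.

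Chemokines that draw monocytes led their family. Ccl6 averaged 765 ± 231 rescaled TPM, and Ccl2, the main ligand of the monocyte receptor Ccr2, had 368, 478, 674, 577 and 762. Ccl8, a further monocyte chemokine, had 243, 1266, 395, 286 and 469.9 rescaled TPM, highest in tumour 2. Ccl17, which draws T cells through the receptor CCR4, had 14.4, 93.2, 20.998, 21.5 and 7.39, also highest in tumour 2. The T cell chemokines induced by interferon gamma, Cxcl9 and Cxcl10, reached 1.07 to 6.56 and 2.38 to 17.4 rescaled TPM, lowest in tumour 2. Csf1, the growth factor of macrophages, had 134, 62.7, 131, 103 and 119.5 rescaled TPM. The interferon response list had 4.89, 4.09, 4.73, 4.91 and 4.94 on the log2 scale, with tumour 2 lowest. Isg15, a ubiquitin-like interferon target, had 179.9, 203, 206, 161 and 158 rescaled TPM, which did not share that order.

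**Figure D3:**
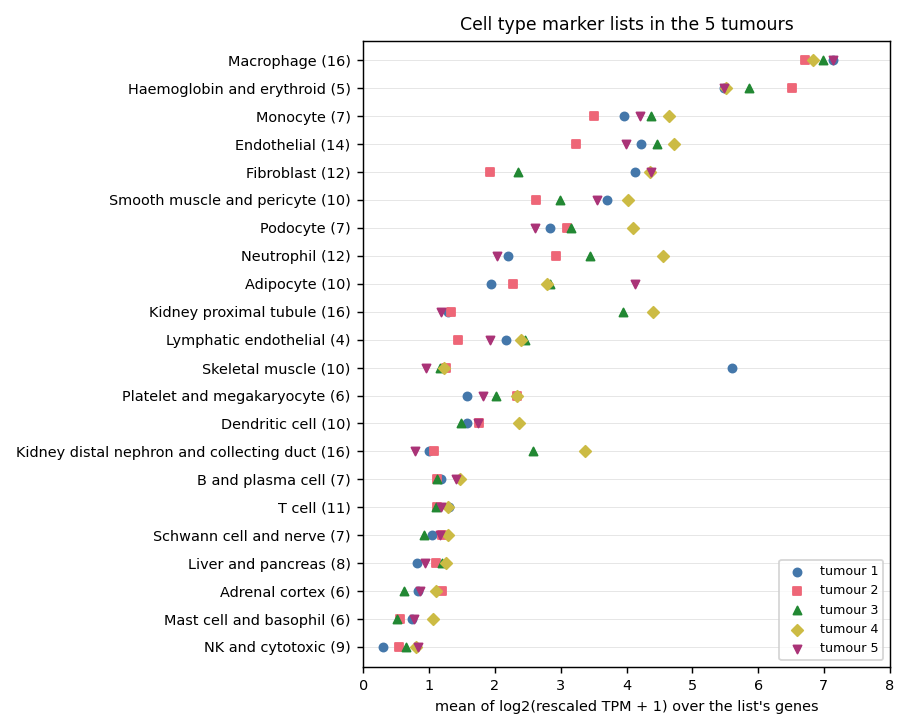
Mean of log2 of rescaled TPM plus 1 over the genes of each cell type marker list, with the number of genes found in brackets and 1 symbol per tumour. The macrophage list mean is high and close between tumours, lymphocyte lists are low, and the kidney tubule, fibroblast, neutrophil and skeletal muscle lists separate the tumours.

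Fibroblast and matrix genes divided the tumours. Col1a1, a chain of the main fibrillar collagen, had 159.6, 5.82, 12.3, 98.2 and 70.7 rescaled TPM. Col3a1, the fibrillar collagen of soft tissue, had 105, 1.61, 8.504, 83.8 and 72.6 rescaled TPM. Dcn, the fibroblast proteoglycan decorin, had 70.2, 2.14, 4.44, 71.9 and 92.7 rescaled TPM. Tumours 1, 4 and 5 were high for each of these, tumour 3 was far lower and tumour 2 lowest. Of the 7 fibroblast markers that averaged at least 10, 5 had a 4-fold range, against 2.1% of all such genes, and the list had 4.13, 1.92, 2.35, 4.35 and 4.37 on the log2 scale. Not all matrix followed: Sparc, a collagen-binding matrix protein, had 1009, 435, 822, 1050.1 and 911 rescaled TPM, and Col18a1, a basement membrane collagen, had 216, 163, 169.7, 154 and 164, within 1.5-fold. Lox, the enzyme that crosslinks collagen, had 183, 7.27, 88.2, 250.1 and 193 rescaled TPM, low in tumour 2. Acta2, the actin of smooth muscle and myofibroblasts, had 64.1, 12.04, 31.8, 95.8 and 64.8 rescaled TPM, and Mgp, a matrix protein that blocks calcification, had 79.4, 2.46, 120.2, 589 and 184, both lowest in tumour 2.

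Endothelial genes were present in all tumours and also lowest in tumour 2. Pecam1, the junction protein CD31, had 33.2, 13.3, 35.6, 51.5 and 24.8 rescaled TPM. Cdh5, the cadherin of endothelium, had 41.9, 11.2, 38.6, 45.3 and 27.2 rescaled TPM. Emcn, a sialoprotein of veins and capillaries, had 30.02, 7.38, 69.8, 91.5 and 25.2 rescaled TPM. All 14 endothelial markers were over background in the 5 tumours (100%, against 66.4% of all coding genes). Tumours 3 and 4 were highest for Pecam1 and Emcn. Red cell messages ran the other way: Hbb-bs, a beta globin, had 202, 685, 335, 284 and 288 rescaled TPM and was highest in tumour 2, although alpha and beta globin copies are too alike to be separated with confidence.

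Genes of the normal kidney were high in tumours 3 and 4. Slc34a1, the phosphate transporter of the proximal tubule brush border, had 0.105, 0.183, 43.1, 38.6 and 0.134 rescaled TPM. Miox, the inositol oxygenase of the same cells, had 0, 0.413, 43.7, 28.7 and 0.138 rescaled TPM. Umod, or uromodulin, made by the thick ascending limb, had 0.0833, 0, 42.9, 196 and 0 rescaled TPM. In tumours 1, 2 and 5 these 3 genes were at or under background, and in tumours 3 and 4 they were far over it. The proximal tubule list had 1.29, 1.33, 3.95, 4.40 and 1.19 on the log2 scale and the distal nephron and collecting duct list 1.003, 1.08, 2.58, 3.36 and 0.79. Proximal tubule markers summed to 169, 143, 449, 697 and 104 rescaled TPM. Not every listed marker followed: Aqp1, which is also on the proximal tubule list, averaged 34.9 rescaled TPM and was lowest in tumour 3. Its message is part of these sums in all 5 tumours, so a sum above 0 does not by itself mean tubule message. Kap, the androgen-regulated kidney protein, had 0.672, 0.701, 44.7, 199.6 and 0.238 rescaled TPM, Slc12a1, the salt transporter of the thick limb, had 0.323, 1.93, 6.17, 25.3 and 0.142, and Slc12a3, the transporter of the distal convoluted tubule, had 1.06, 3.97, 20.7, 44.1 and 0.665. Ren1, renin of the juxtaglomerular cells, had 0.141, 0.257, 14.4, 132 and 0 rescaled TPM. Havcr1, or KIM-1, which injured proximal tubules switch on, had 0.116, 0.425, 14.5, 248 and 0.969 rescaled TPM, with tumour 4 far above tumour 3. By contrast Slc34a1 and Miox were slightly higher in tumour 3.

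Pax8, Cdh16 and Tfcp2l1 did not follow this split. Their values in tumours 1, 2 and 5, which lacked Slc34a1 and Umod, overlapped those in tumours 3 and 4.

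Skeletal muscle genes and some fat genes were each high in single tumours. Acta1, the actin of skeletal muscle, had 293, 1.63, 0.113, 1.09 and 0 rescaled TPM. Myl1, a myosin light chain of fast muscle, had 109, 1.74, 4.695, 1.53 and 5.03 rescaled TPM. Tnnt3, a troponin of fast muscle, had 111, 4.55, 1.18, 1.64 and 1.36 rescaled TPM. Tumour 1 stood far above the others for all 3, and the muscle list had 5.61, 1.26, 1.17, 1.23 and 0.95 on the log2 scale. Cfd, or adipsin, a serine protease made by fat cells, had 0.532, 0.976, 4.32, 2.32 and 82.1 rescaled TPM. Adipoq, the fat hormone adiponectin, had 0, 1.31, 0.483, 0.216 and 15.9 rescaled TPM. Tumour 5 was highest for both, and both were lower there than Acta1, Myl1 and Tnnt3 were in tumour 1. The list of 10 fat cell markers had 1.95, 2.27, 2.84, 2.79 and 4.13 on the log2 scale. Of the 5 that averaged at least 10, 3 had a 4-fold range, against 2.1% of all such genes. Only Cfd of these was high in tumour 5 alone. Pck1 was high in tumours 3 and 4, and Fabp4 was low in tumour 2 alone. Car3, a carbonic anhydrase of muscle and fat, had 62.1, 2.02, 10.8, 0.615 and 59.7 rescaled TPM and was high in tumours 1 and 5.

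Most genes varied little between the tumours. Among the 9742 genes that averaged at least 10 rescaled TPM, the highest tumour was within 1.5-fold of the lowest for 63.8% and within 2-fold for 90.0%, after 1 was added to each value. A range of at least 4-fold was found for 205 genes (2.1%), of which 63 reached 16-fold. The median SD of a gene was 0.19 on the log2 scale. Without tumour 4 the count of 4-fold genes was 134, without tumour 2 it was 145, and without both tumours 3 and 4 it was 107. Over these 9742 genes the median Spearman correlation of a tumour with the other 4, across genes that are not independent, was 0.9598, 0.937, 0.9596, 0.955 and 0.955. Tumour 2 was lowest in this, and its typical distance from the gene mean, 0.179 on the log2 scale, was the largest, against 0.101 to 0.1404 in the other 4.

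**Figure D4:**
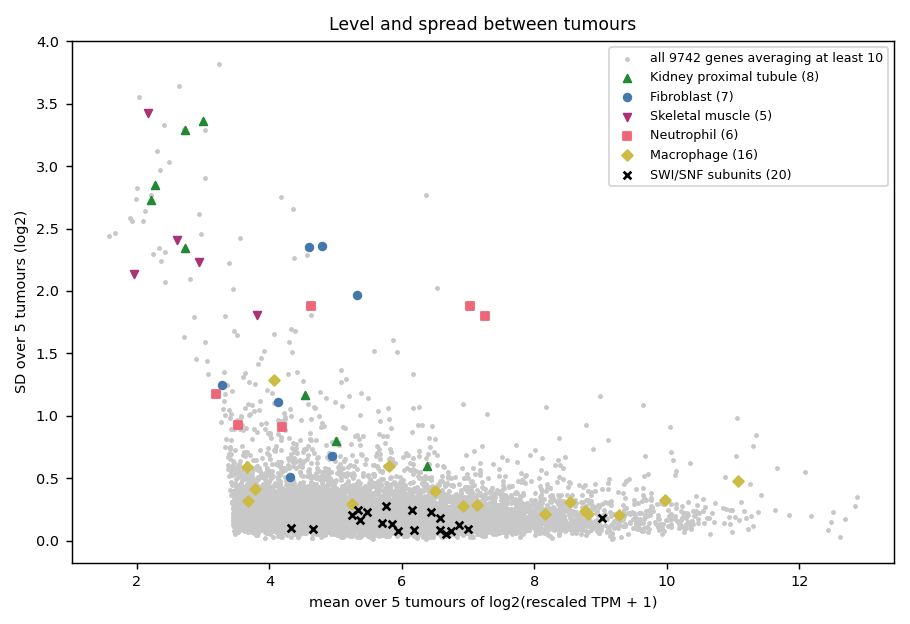
SD over the 5 tumours against the mean, both of log2 of rescaled TPM plus 1, for the 9742 genes that averaged at least 10, with 6 lists in colour. SWI/SNF subunits have a median SD of 0.14, against 0.19 for all genes, although Smarcb1 lies above 0.19. Macrophage markers sit mostly within the cloud, while kidney tubule, fibroblast, muscle and neutrophil markers rise above it.

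The 205 variable genes fell into 24 patterns when each was divided at its largest gap, a grouping chosen after the data were seen, and the 8 largest patterns held 163 of them. The most common, 49 genes, was low in tumour 2 alone, and held Gpx3, Mgp, Lox, Acta2, Fabp4, a fatty acid carrier of fat and capillary cells, and the basement membrane collagen Col4a1, which had 114, 26.4, 69.3, 125 and 64.6 rescaled TPM. Next came 30 genes high in tumours 3 and 4, among them Ldhb, a lactate dehydrogenase chain with 3.53, 2.53, 63.6, 270.1 and 5.68 rescaled TPM, Klk1, a kallikrein of the distal tubule, and Slc27a2, a fatty acid transporter. A further 18 genes were low in tumour 5 alone, among them Retnlg and the secreted phospholipase Pla2g2e. A set of 17 genes was high in tumour 4 alone, such as S100a8, Havcr1 and the neutrophil chemokine Cxcl2. Another 12 were high in tumours 1, 4 and 5, such as Col1a1, Dcn and Arg1, the arginase of liver and of macrophages. High in tumour 2 alone were 13 genes, including Bnip3, Ccl8, Lyz1, the lysozyme of intestinal Paneth cells with 47.96, 375, 31.3, 27.03 and 49.97 rescaled TPM, and Sprr1a, a small proline-rich protein of stressed epithelium with 16.04, 280.2, 36.3, 43.6 and 30.7. In tumour 1 alone 9 genes were high, led by Acta1. The 15 genes high in tumours 2 and 4 held 8 provisional models, all kept in the coding total. Gm10718, Gm10722, Gm10717 and Gm11168 averaged 2565, 1252, 1006 and 664 rescaled TPM, and Gm10719, Gm17535, Gm10715 and Gm10721 less. Tumours 2 and 4 also had the most message of the satellite-like models left out. Whether the 8 are independent of those models was not tested. Provisional models of all kinds held 1.15% to 2.18% of the coding total.

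**Figure D5:**
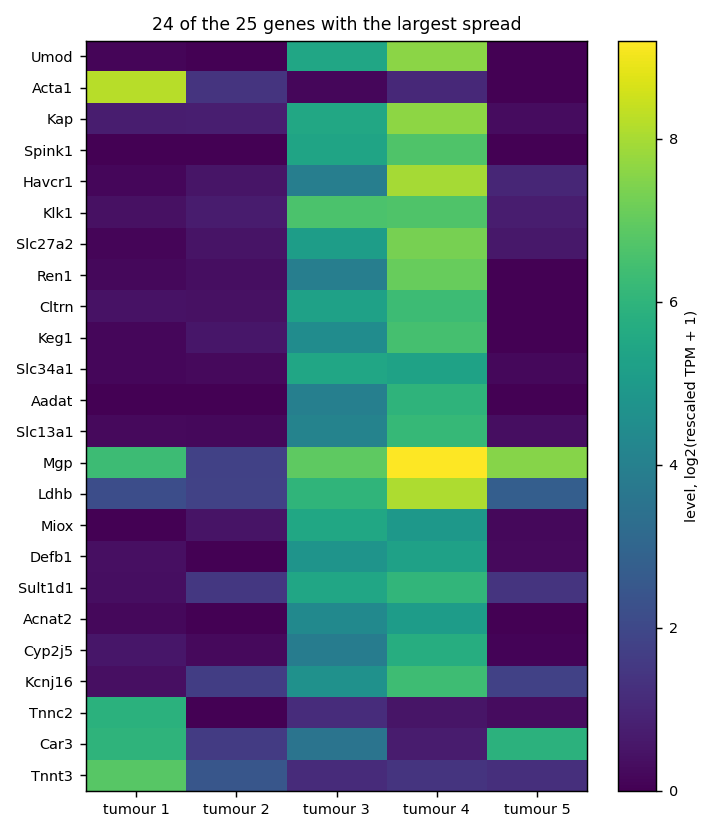
Heat map of log2 of rescaled TPM plus 1 in the 5 tumours for 24 of the 25 genes with the largest SD among those averaging at least 10, leaving out provisional names. Most are kidney genes bright only in tumours 3 and 4, with Acta1, Tnnc2 and Tnnt3 bright in tumour 1, Car3 in tumours 1 and 5, and Mgp dark only in tumour 2.

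The 25 most variable genes were mainly markers of kidney and muscle. Of the 25, 20 had their 2 highest values in tumours 3 and 4. The 25 were picked for their spread over these same tumours and include kidney and muscle markers. They are thus no separate support for kidney message in tumours 3 and 4 or muscle message in tumour 1. The part of neighbouring tissue in these messages, and in the fat message of tumour 5, was not tested. Genes of tumour identity differed in their spread. The SD on the log2 scale was 0.04 for Hoxa10, 0.12 for Zeb1, 0.20 for Pax8 and 0.23 for Smarcb1, where the median of all genes was 0.19. It was 0.53 for Krt20, 1.64 for Epcam and 2.18 for Hnf4a.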

How the data were processed

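Total RNA of 5 kidney tumours was sequenced, 1 library per biological replicate, 5 in the only group used and 20 in the series. The authors deposited log2 TPM with no constant added, in which 34234 genes share a constant TPM total per library and a common lowest value stands for 0 TPM. The submitters' processing notes list Salmon 0.14.1 and HTSeq 0.11.0 beside cutadapt and fastp, with mm10 as the build; which of them made the TPM, and any filter, is not given in the sources used here. TPM keep no counts, so no depth or counting error can be stated, and whether libraries hold separate cultures is not said.

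Values were raised from log2, mitochondrial genes, Gm10800, Gm10801 and Gm21738 were left out, and the 19766 genes typed as protein coding by GENCODE M21 on mm10 (33928 of the names matched, and 12 coding names matched through RefSeq synonyms) were rescaled to that total. Trac is given on the same scale. A pseudocount of 1 was added before log2, spread was described for genes averaging at least 10, and a 4-fold range was called on value plus 1. Rank correlations are Spearman, across genes. Python 3.11.15, pandas 2.3.3 and numpy 2.4.6 were used, and the steps were tested on simulated data. With 1 group no test between groups was made; Dixon's limit was used to mark single tumours that stood apart.

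The tumours, the 48 gene lists (782 genes, of which 22 lists are cell type markers) and the rule for named genes were chosen with earlier results of these data known. The rule takes the 40 most abundant genes, the 25 with the largest SD among those averaging at least 10, leaving out provisional names, and from each list the 6 most abundant, the 3 most variable and those at or under background in all tumours. A fixed set of identity and immune genes is always given, including Smarcb1, Pax8, Cdh1, Cd274 and Cbs. Other names, of which the text gives 42, such as Zeb1, Twist2, Gata3, Dppa2 and Hoxa11, were chosen after their values were seen. Alternatives were other pseudocounts, filters, detection levels and scales, and each tumour left out.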

Additional observations from a re-analysis of the deposited data

Results flagged for a closer look

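Each value named in the report and each list mean was examined for a tumour whose gap to its nearest neighbour exceeded 0.71 of the range of the 5 on the log2 scale, Dixon's 95% limit for 5 samples. Chance alone passes about 1 in 20, and 18 of 249 passed; since many of the genes were named for their spread or after their values were seen, this share cannot be read against that rate. Over the 9742 genes averaging at least 10, 6.22% passed, and tumour 2 was the one standing apart in 46.9% of those.

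Skeletal muscle stood apart in tumour 1. Acta1 had 293 rescaled TPM there and at most 1.63 in the others. Tnnt3 had 111, Myl1 109 and Tnnc2 57.3 rescaled TPM, and the muscle list averaged 5.61 on the log2 scale in tumour 1 against at most 1.26 in the others. Col18a1 with 216 and Lgals9 with 212 rescaled TPM were also highest in tumour 1, by much less.

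Tumour 2 stood apart in the largest number of items. Dppa2 had 1.604 and Dppa4 1.497 rescaled TPM there, with at least 31.1 and 25.4 in every other tumour. Sparc with 435 rescaled TPM was low in tumour 2, as were the interferon response list with 4.09 and the list of cell cycle brakes and p53 pathway genes with 6.04 on the log2 scale. Lyz1 with 375, Eno2 with 214 and Ankrd37 with 85.6 rescaled TPM were high in it. Hoxc11 was listed at 0 in tumour 2, where the other tumours had at most 0.293.

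Lcn2 had 2796 rescaled TPM in tumour 4, with at most 1135 in the others, the tumour in which S100a8 and Havcr1 were also highest. Actl6a, a SWI/SNF subunit, had 141 rescaled TPM in tumour 5, with at most 126 in the others.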

How the results depend on the processing

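No paired analysis was possible because there is 1 group and no result comes from a test between groups. A mean of 5 cannot move by 1 SD when 1 value is left out, so that measure says nothing about single tumours. By a 1.5-fold move, a measure chosen after seeing the data, 29 of the 167 named genes averaging at least 10 depended on a tumour, 15 of them on tumour 4. Acta1 averaged 0.7098 instead of 59.2 rescaled TPM without tumour 1, Cfd 2.04 instead of 18.05 without tumour 5, Havcr1 4.01 instead of 52.8 without tumour 4 and Lyz1 39.1 instead of 106 without tumour 2. Of the 48 list means, that of skeletal muscle moved so far, being 1.15 instead of 2.04 without tumour 1. The count of genes with a 4-fold range, 205, ran from 134 without tumour 4 to 200 without tumour 1. That count was 353 with a filter of 5, 44 with 50 and 936 with none. It was 107 without tumours 3 and 4, and 79 on the deposited TPM of coding genes, these 2 settings chosen after seeing the data. The filter of 10 is stricter on deposited TPM, of which coding genes hold 28.3% to 43.1%. Deposited TPM of all genes, coding or not, gave 212. Pseudocounts of 0.1 and 5 and equal library medians kept the count between 143 and 218. The share of the 20 most abundant genes was 60.98% on deposited TPM, which count Gm23935 and mitochondrial genes, and 9.29% without ribosomal protein and haemoglobin genes. The rank correlation was 0.922 for genes averaging at least 50, against 0.953.

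On deposited TPM the list means were lower, at 2.15 for epithelial, 4.81 for mesenchymal, 5.46 for macrophage and 0.62 for T cell genes. With a pseudocount of 5 they were 4.08 for epithelial, 6.53 for mesenchymal and 2.75 for T cell genes, and with 0.1 the T cell mean was 0.0907. Mesenchymal stayed above epithelial by 2.45 to 3.41 in every setting run. Equal library medians moved none of the 48 list means or 194 gene levels by 1 SD. That setting keeps the average scale over the 5 tumours, so a mean over them can hardly move, and the result says nothing about the scale. The unknown depth limits every value near background, where some lymphocyte genes lie.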

Other observations

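Several genes outside the identity and stroma lists had levels a reader may want to follow. Xist, the RNA that silences an X chromosome in female cells, had 48.8, 60.9, 51.1, 109 and 61.9 on the rescaled scale, and Kdm5d, a gene of the Y chromosome, had 0, 0.0601, 0.0659, 0.0729 and 0.0205, over background in no tumour. Cela1, an elastase named for the pancreas, had 51.6, 119.95, 79.5, 43.5 and 81.9 rescaled TPM, whereas Alb, the liver albumin, had 0.322, 0, 0.0728, 0.249 and 0.205. Aqp1, a water channel of proximal tubule, red cells and capillaries, had 63.1, 30.8, 13.8, 24.6 and 42.4 rescaled TPM and was lowest in tumour 3, one of the 2 tumours with tubule messages. Tfrc, the transferrin receptor that brings iron into cells, had 67.4, 175, 29.8, 39.3 and 126 rescaled TPM, high in tumours 2 and 5, while Slc40a1, the iron exporter ferroportin, had 5.82, 1.94, 10.5, 26.1 and 9.29, lowest in tumour 2. Krt17, a keratin of stressed epithelium, had 27.9, 95.2, 17.8, 10.9 and 69.6 rescaled TPM, also high in tumours 2 and 5. H19, an imprinted long non-coding RNA, had 42.3, 0.211, 0.637, 7.23 and 2.39 on the rescaled scale and was high in tumour 1, the tumour with muscle messages. Lyve1, a marker of lymphatic vessels and of some macrophages, had 29.1, 12.5, 125, 32.03 and 39.2 rescaled TPM, highest in tumour 3, while Prox1, the defining factor of lymphatic endothelium, had 0.206, 0.0942, 0.158, 0.656 and 0.329. These genes were chosen after their values were seen, and no test was made on them.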
